A study of Parasteatoda tepidariorum with 2 samples.

Results

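RNA levels in whole cells and in isolated nuclei were compared gene by gene in the early germ band of the spider *Parasteatoda tepidariorum*. Both preparations came from whole wild-type stage-7 embryos, aged 51 h from egg laying. The stage-7_cell library was made from 15 embryos dissociated with elastase, and the stage-7_nucleus library from 20 embryos of another egg sac that were homogenized in a detergent buffer. All barcodes in the filtered matrices entered, which were 865 cells and 6239 nuclei, 7104 of 7104 in the series. The matrices listed 13766 genes in cells and 19692 in nuclei, and 13637 genes were shared by both. These shared genes held 99.98% of the molecules counted in cells and 99.69% of those in nuclei.

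A whole cell contains finished messenger RNA in its cytoplasm together with the RNA of its nucleus. An isolated nucleus keeps mainly transcripts that are being made, spliced or awaiting export, so unspliced RNA makes up more of its content. The spider germ band at this stage is a sheet of ectoderm in which stripes of gene expression form along the anterior-posterior axis, with mesodermal and endodermal cells beneath it.

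There was 1 library per preparation, so no test between them was possible and no p-value is given. The level of a gene is its share of all molecules in a library, given as molecules per 10000. Intervals in square brackets are 95% exact intervals, Poisson for a level and conditional binomial for a ratio, and they cover counting error only. A gene was called higher on one side when its level there was at least 2-fold that on the other. Reads in introns were counted for nuclei and not for cells. Preparation, egg sac, strainer size, intron counting and a slightly younger age of the cell embryos changed together, and their parts in any difference cannot be told apart.

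Cells had a median of 9159 molecules per barcode (range 3499 to 19988) and nuclei 10452 (range 4442 to 19993), summing to 8640142 and 68754756 molecules. When each barcode was thinned to 3000 molecules, a median of 1264 genes was detected per cell and 1665 per nucleus. The molecules were more concentrated in cells. The 100 most abundant genes took 37.4% of them [37.38, 37.44] in cells and 22.9% [22.93, 22.95] in nuclei. The libraries shared 6 barcode labels, and these were kept in both.

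Markers of the germ layers and body regions were counted in both libraries, from 6 molecules upward in cells and from 888 upward in nuclei. The background of free RNA was not measured, so the lowest of these counts do not show that the cells they mark were captured. Their levels are given with the marker comparison further on.

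Most genes had a larger share of the molecules in nuclei than in cells. Among 7478 shared genes whose mean of both levels was at least 0.1 per 10000, 2626 were at least 2-fold higher in nuclei (35.1% of those compared), 142 were at least 2-fold higher in cells (1.90%) and 4710 lay between. The median log2 ratio of cells to nuclei was −0.60, so the median gene was 1.51-fold higher in nuclei, and the 5% and 95% quantiles were −2.50 and 0.69. Since levels are shares, a few genes that take more of 1 library lower all others there. With ratios centred on this median, 803 genes were at least 2-fold higher in cells and 1399 in nuclei, so the split between the sides depended on the scaling. A log2 ratio between −0.60 and 0 changed sign under this centring.

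The ratio changed steadily with the level. Among 1703 genes with a mean level of 0.1 to 0.2, the median log2 ratio was −0.94, and 47.4% were at least 2-fold higher in nuclei. It was −0.54 among 1549 genes at 0.5 to 1, −0.36 among 953 genes at 1 to 2 and −0.09 among 540 genes at 2 to 5. Among the 154 genes at 10 or more it was 0.69, with 16.2% at least 2-fold higher in cells and 0.649% in nuclei. Across the 7478 genes the log10 levels in both libraries had a Pearson correlation of 0.855 and a Spearman correlation of 0.827, given as a description because genes are not independent replicates and share their library.

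**Figure D1:**
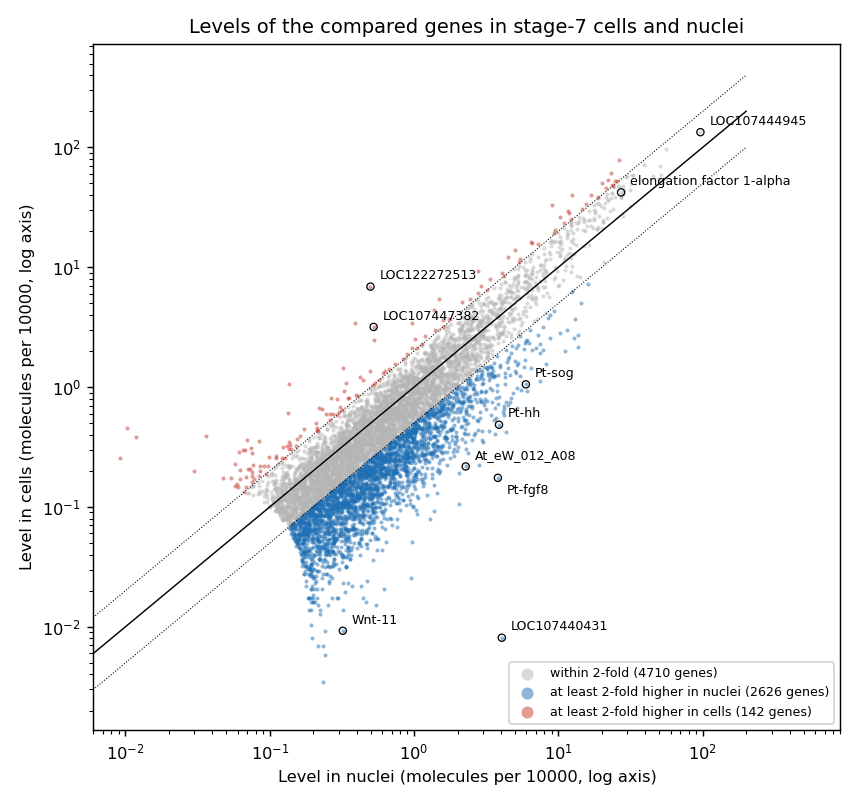
Level of each of the 7478 compared genes in nuclei (horizontal) and in cells (vertical), both in molecules per 10000 on log axes, with equality as a solid line and 2-fold as dotted lines. The 2626 genes called higher in nuclei lie below the lower dotted line and are mostly of low or middle level, while the most abundant genes lie above equality.

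Long non-coding RNAs had a lower median ratio than protein-coding genes, without matching for level. RefSeq gave a biotype for 11876 of the 13637 shared genes. Of 143 long non-coding RNAs compared, 75 were at least 2-fold higher in nuclei (52.4%) and 9 in cells (6.29%), with a median log2 ratio of −1.05. Of 6868 protein-coding genes, 2377 were higher in nuclei (34.6%) and 110 in cells (1.60%), with a median of −0.59. Among all genes with a mean level of 0.1 to 0.2 the median was −0.94 and 47.4% were higher in nuclei. Whether the long non-coding RNAs differ from other genes of the same level was not tested. The gene furthest toward cells among those with a mean level of at least 1 was itself a long non-coding RNA, LOC122272513. It had 5947 molecules in cells and 3428 in nuclei, levels of 6.88 [6.71, 7.06] and 0.499 [0.482, 0.516], a 13.8-fold difference [13.2, 14.4].

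Lists of the machinery that every cell uses had medians on the cell side of the median gene. Product names were at hand for 1325 of the shared genes, so each list below covers only the members named there. The names came from the study's gene tables, which include genes chosen on these nuclei. Membership in a list may therefore depend on nuclear values. Near-identical copies may share reads (2 entries for ribosomal protein L9, several histones and tubulins). The counts read against the 35.1% and 1.90% above. Neither these shares nor the offsets from the median of all genes are matched for level. All genes with a mean level of 2 to 5 had a median of −0.09, and those at 5 to 10 one of 0.27. Genes with a product name other than uncharacterized lay nearer to equality than all genes, with a median of −0.38 over 1046 compared and with 357 called higher in nuclei and 22 in cells. Genes named only as the end of a list's range were picked after their values were seen.

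Genes of the translation apparatus mostly lay within 2-fold, with positive medians. Of 14 translation factors, 0 were called higher in cells and 1 in nuclei, with a median log2 ratio of 0.51, which is 1.11 above the median of all genes and less far above that of the named genes. Elongation factor 1-alpha (LOC107447334), which brings aminoacyl-tRNA to the ribosome, was at 42.1 [41.7, 42.5] in cells and 27.2 [27.1, 27.3] in nuclei, a 1.55-fold difference [1.53, 1.57]. Elongation factor 1-beta (LOC107445468), its nucleotide exchange factor, was nearly level at 6.80 [6.63, 6.98] and 6.57 [6.51, 6.63]. The member furthest toward nuclei was translation initiation factor 4E type 3, at a log2 ratio of −1.88. Among 5 cytosolic ribosomal protein genes the median was 0.49, and ribosomal protein L15 (LOC107451224) was called higher in cells, at 9.32 [9.12, 9.53] against 2.78 [2.74, 2.82].

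Mitochondrial and protein-quality genes lay within a narrow range. None of 15 respiratory chain genes and none of 11 mitochondrial ribosomal protein genes were called in either direction, with medians of 0.24 and 0.22. Cytochrome c oxidase subunit 4 (LOC107452829), part of the last complex of the respiratory chain, was 1.68-fold higher in cells [1.62, 1.73]. None of 19 proteasome genes were called either, their median was 0.42, and all lay between −0.22 and 0.90. Of 13 chaperones and co-chaperones 1 was called, dnaJ homolog 1-like at −1.15, and the median was 0.17.

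Cytoskeletal genes had the highest list median, 0.92 over 8 genes, with 2 called higher in cells and 1 in nuclei. A tubulin alpha chain (LOC107451299) was at 16.3 [16, 16.6] in cells and 6.46 [6.4, 6.52] in nuclei, a 2.52-fold difference [2.47, 2.57]. Actin (LOC107443493) was 1.88-fold higher in cells [1.84, 1.92]. Another tubulin alpha chain, LOC107453118, lay the other way at a log2 ratio of −1.17. Of 9 histone genes 2 were called higher in cells and 1 in nuclei, with a median of 0.40. Histone H2B (LOC107443687) was at 4.43 [4.29, 4.57] in cells and 1.37 [1.34, 1.4] in nuclei, whereas the centromeric histone H3 variant had a ratio of −1.87.

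Stress genes were examined because dissociation can induce them. Of 4 measured members 1 was called higher in cells, ATF-4 (LOC107437627), a transcription factor of the integrated stress response, with 9.01 [8.81, 9.22] in cells and 4.09 [4.04, 4.14] in nuclei. Heat shock 70 kDa protein 4 (LOC107438136) differed by 1.09-fold [1.06, 1.11], and the list's median was 0.45. Major heat shock 70 kDa protein Ab (LOC107453144) was within 2-fold, at a log2 ratio of 0.44. A further member was listed by the words of its product name alone, a protein that interacts with growth arrest and DNA damage-inducible proteins. Outside this list, LOC107447382, named for the fly gene *lethal (2) essential for life* of the small heat shock protein family, was at 3.17 [3.06, 3.30] in cells and 0.524 [0.507, 0.542] in nuclei, 6.06-fold higher [5.76, 6.37]. A second gene of that name (LOC107436795), looked up after the first was seen, was within 2-fold, at 2.28 [2.18, 2.39] and 1.45 [1.42, 1.48]. Whether dissociation contributed was not tested.

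Genes of nuclear processes did not form 1 group. The 19 pre-mRNA splicing genes had a median of 0.28, with 2 called in each direction. The 12 cell cycle genes had a median of −0.01, which becomes positive when ratios are centred, with 0 called higher in cells and 4 in nuclei. Aurora kinase C (LOC107447970), a mitotic kinase, was 2.65-fold higher in nuclei [2.51, 2.81], while PCNA (LOC107441171), the sliding clamp of replication, was 1.14-fold higher in cells [1.09, 1.18]. Chromatin regulators lay on the nuclear side. Of 16 compared, 8 were called higher in nuclei and 0 in cells, and their median was −0.87. Lysine-specific demethylase 6A (LOC107452612), which removes methyl groups from histone H3, was at 0.934 [0.871, 1.00] in cells and 6.04 [5.98, 6.10] in nuclei, 6.47-fold higher in nuclei [6.03, 6.94].

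Among the lists made from product names, the homeobox, zinc finger, adhesion and guidance, and signalling lists had the lowest medians. They are given here in falling order over all barcodes. Of 31 homeobox genes compared (a list that includes a homeodomain-interacting kinase), 15 were called higher in nuclei and 0 in cells, with a median log2 ratio of −0.99. Zinc finger homeobox protein 3 (LOC107457539) was 2.32-fold higher in nuclei [2.22, 2.43], while *Pt-ftz* (LOC107447504), a Hox cluster gene, was at 3.20 [3.09, 3.33] in cells and 3.93 [3.89, 3.98] in nuclei, within 2-fold. Its log2 ratio of −0.30 changes sign on centring. Of 23 zinc finger genes 12 were called higher in nuclei and 0 in cells, with a median of −1.04, and 8 had a ratio above 0. The zinc finger list was matched by name alone and is not limited to patterning genes. *Pt-opa* (LOC107437305), a zinc finger factor named for the fly pair-rule gene *odd-paired*, was at 0.669 [0.616, 0.726] in cells and 3.65 [3.60, 3.69] in nuclei.

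Of 24 adhesion and guidance genes 15 were called higher in nuclei and 0 in cells, with a median of −1.36. Ephrin-B2a (LOC107456521), a membrane ligand of Eph receptors, was 4.48-fold higher in nuclei [4.23, 4.75]. *Pt-latrophilin-B* (LOC107437002), an adhesion G protein-coupled receptor, was named as one of the study's selected genes, with 2.01 [1.92, 2.11] in cells and 11.1 [11.1, 11.2] in nuclei. Fasciclin-2 (LOC107436358), a homophilic adhesion molecule, lay just inside 2-fold at 4.18 [4.04, 4.32] and 8.24 [8.17, 8.31]. The lowest ratio in the list was −4.71, for the guidance cue netrin-1.

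Signalling ligands and receptors had the lowest median of all lists. Of 27 compared, 22 were called higher in nuclei and 0 in cells, the median was −1.95, which is −1.35 relative to all genes, and the highest ratio in the list was −0.73. Among ligands, *Pt-fgf8* (LOC107453597) had 151 molecules in cells and 26178 in nuclei, levels of 0.175 [0.148, 0.205] and 3.81 [3.76, 3.85], a 21.8-fold difference [18.6, 25.7]. *Pt-hh* (LOC107451809), the Hedgehog ligand, was 7.99-fold higher in nuclei [7.26, 8.82]. A Wnt-11 gene (LOC107449252), chosen after its value was seen, had 8 molecules in cells and 2205 in nuclei, 34.6-fold higher [17.5, 80.3].

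Receptors and extracellular regulators lay on the same side as the ligands. *Pt-Notch* (LOC107442769) was at 0.894 [0.832, 0.959] in cells and 4.86 [4.81, 4.91] in nuclei, and *Pt-Delta* (LOC107456525), a ligand of Notch receptors, at 0.206 [0.177, 0.239] and 0.798 [0.777, 0.820]. *Pt-sog* (LOC107454167), which binds BMP ligands outside the cell, was 5.65-fold higher in nuclei [5.29, 6.04]. Both glypicans named by the rule, heparan sulphate proteoglycans that bind ligands at the cell surface, were higher in nuclei, glypican-5 (LOC107446074) by 3.86-fold [3.68, 4.06] and *Pt-glypican6-B* (LOC107436350) by 6.19-fold [5.73, 6.71]. Smoothened (LOC107456312), the transducer of the Hedgehog signal and likewise chosen after its value was seen, was 8.82-fold higher [6.82, 11.6].

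The genes that the study selected for their pattern along the body axis also lay toward the nuclei. They include many members of the homeobox, adhesion and signalling lists, so a likeness to these lists is partly built in. They were also selected on the same nuclei and are not independent of the nuclear values. Of 185 compared, 118 were higher in nuclei and 4 in cells, with a median of −1.53. Among 224 genes whose product is uncharacterized, 106 were higher in nuclei and 8 in cells, with a median of −0.94. The 6208 compared genes without a product name had 2163 higher in nuclei and 112 in cells, with a median of −0.61, close to that of all genes.

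**Figure D2:**
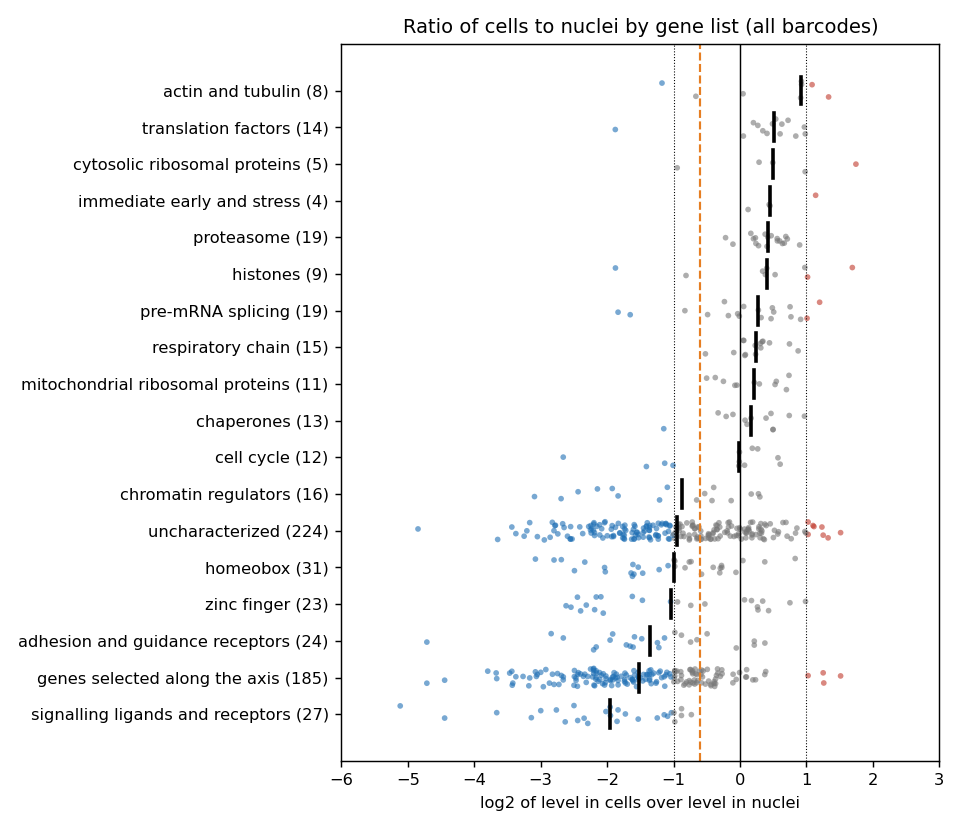
Log2 ratio of the level in cells to that in nuclei for each member (points) of 18 gene lists, with each list's median as a black bar, the median of all compared genes as a dashed line and 2-fold as dotted lines; the number compared is in brackets. List medians run from −1.95 for signalling genes to 0.92 for actin and tubulin.

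The most abundant transcripts overlapped between the libraries. Of the 10 genes with the highest level in cells, 7 were also among the 10 highest in nuclei. All 13 genes on either list were higher in cells, by 1.10-fold to 2.96-fold. The top gene of both, LOC107444945, which had no product name, was at 134 [133, 135] in cells and 96.4 [96.1, 96.6] in nuclei. High mobility group protein HMG-I/HMG-Y (LOC107441824), an architectural protein of chromatin, was at 58.7 [58.2, 59.2] and 32.9 [32.7, 33.0]. The smallest difference, 1.10-fold [1.09, 1.11], was that of LOC107440487.

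The genes with the most extreme ratios at a mean level of at least 1 were examined next. On the cell side, LOC122272513 and LOC107447382 above were joined by LOC107444240, without a product name, at 3.41 [3.29, 3.54] in cells and 0.387 [0.373, 0.402] in nuclei, 8.81-fold higher [8.36, 9.29]. The 10 genes on this side reached down to 1.69 on the log2 scale, and 4 of them carried a product name: LOC107447382, WW domain-binding protein 2 (LOC107449559), ribosomal protein L15 and histone H2B.

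On the nuclear side, a gene named SEC14-like protein 2 (LOC107440431), of a family of lipid-binding proteins, stood far from all others. It had 7 molecules in cells and 27862 in nuclei, levels of 0.0081 [0.00326, 0.0167] and 4.05 [4.00, 4.1], a 500-fold difference [243, 1244]. A second gene with the same product name (LOC107438705) was 10.3-fold higher in nuclei [9.31, 11.5], with 365 and 29981 molecules. The 10 genes on this side also held *Pt-fgf8*, the mitochondrial carrier Rim2 (LOC107441272) at 19.5-fold [15.9, 24.3], TFIID subunit 8 (LOC107456289) of the basal transcription machinery at 10.7-fold [9.19, 12.6], A-kinase anchor protein 13 (LOC107454046) at 8.60-fold [7.67, 9.66] and *Pt-h15-1* (LOC107436847), a T-box factor, at 8.37-fold [7.37, 9.53].

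The 19 marker genes of the germ layers and body regions were lower in cells with few exceptions. Of 18 that passed the level filter, 13 were at least 2-fold higher in nuclei, 0 in cells and 5 lay between, with a median log2 ratio of −1.53. The exceptions above 0 were *Pt-twist* (LOC107440133), the mesodermal bHLH factor, and the homeobox gene *Pt-msx1* (LOC107447678). *Pt-twist* had 537 molecules in cells and 2647 in nuclei, levels of 0.622 [0.570, 0.676] and 0.385 [0.370, 0.40], 1.61-fold higher in cells [1.47, 1.77]. *Pt-msx1* was at 0.841 [0.781, 0.905] and 0.649 [0.630, 0.669], 1.30-fold higher in cells [1.2, 1.4].

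Of 5 markers of the extraembryonic and endodermal cells, At_eW_012_A08, *Pt-GATA1* and *Pt-tlx* lay beyond the median of the markers, and the other 2 lay near it or closer to 0. At_eW_012_A08 (LOC107451427), which marks both, was at 0.218 [0.188, 0.251] in cells and 2.28 [2.24, 2.31] in nuclei, 10.5-fold higher in nuclei [9.07, 12.2]. *Pt-GATA1* (LOC107448880), a GATA factor, was 4.75-fold higher [4.37, 5.17]. The homeobox gene *Pt-tlx* (LOC107441150), which did not pass the level filter, had 6 molecules in cells and 888 in nuclei. The other 2, LOC107436131 and LOC107439300, differed by 2.90-fold [2.21, 3.88] and 2.39-fold [1.97, 2.92]. A smaller share of such cells in the cell library and less of their RNA per cell cannot be told apart from these sums.

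Region and stripe markers of the ectoderm spread over a similar range. In the head, *Pt-otd* (LOC107457189) was at 0.341 [0.304, 0.383] in cells and 0.987 [0.964, 1.01] in nuclei. *Pt-six3-1* (LOC107450741), a marker of the anterior end, was 6.45-fold higher in nuclei [5.37, 7.81] and *Pt-AP2-A* (LOC107452006), a marker of the opisthosoma, 5.40-fold higher [4.74, 6.18]. The smallest nuclear excess was that of *Pt-asl-H* (LOC107452883), a proneural-type bHLH gene, at 1.41-fold [1.18, 1.68], whose log2 ratio of −0.49 changes sign on centring. The order of these genes therefore differed between the libraries. *Pt-msx1* had more molecules than *Pt-hh* in cells, 727 against 419, and fewer in nuclei, 4465 against 26650.

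**Figure D3:**
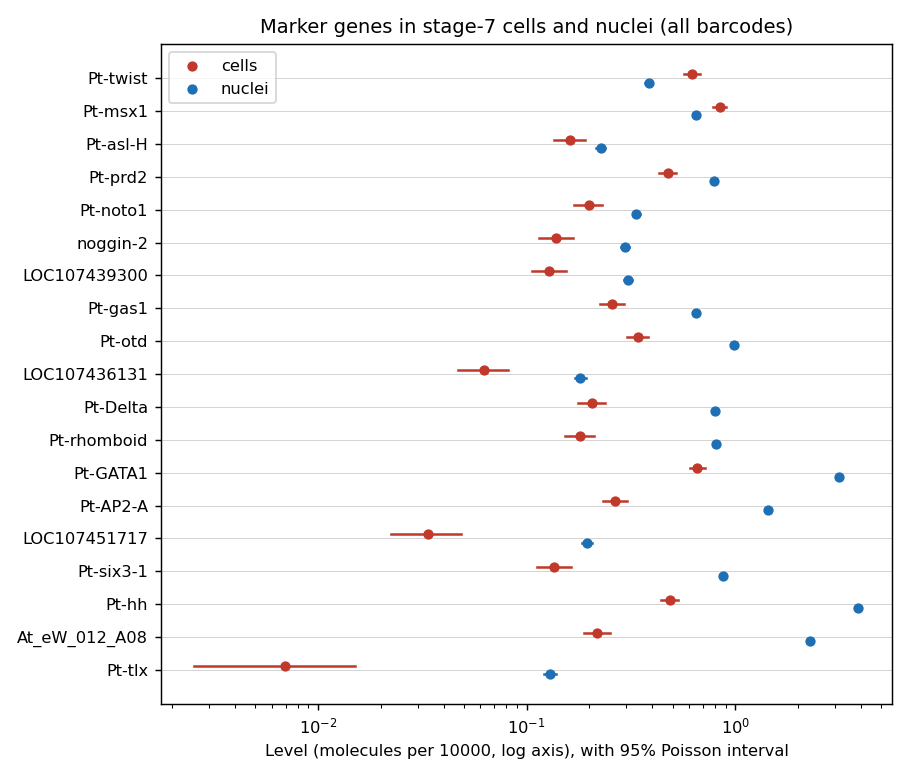
Level of 19 marker genes in cells (red) and nuclei (blue), in molecules per 10000 on a log axis, with 95% Poisson intervals that cover counting error only. Points for *Pt-twist* and *Pt-msx1* lie higher in cells, and the points of the other 17 genes lie higher in nuclei.

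To compare barcodes of more similar cell type, levels were summed again over barcodes with at least 2 *Pt-twist* molecules, which were 111 cells and 512 nuclei, and over barcodes with none, which were 667 cells and 5045 nuclei. The remaining 87 cells and 682 nuclei had 1 molecule. Barcodes with *Pt-twist* had more molecules, with medians of 11572 in cells and 12274.5 in nuclei against 8504 and 10285 without. *Pt-twist* itself chose the barcodes and its levels there are no result.

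The nuclear side still held more genes within both groups, which were compared at a mean level of at least 0.5. In barcodes with *Pt-twist*, 531 of 3287 genes were at least 2-fold higher in nuclei (16.2%) and 49 in cells (1.49%), with a median log2 ratio of −0.20. In barcodes without it, 916 of 3363 were higher in nuclei (27.2%) and 95 in cells (2.82%), with a median of −0.35. Centred on these medians, the counts were 376 and 105 with *Pt-twist* and 618 and 307 without.

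The ratio of cells to nuclei was similar in both groups of barcodes. Across the 3118 genes compared in both, the log2 ratios had a Pearson correlation of 0.939 and a Spearman correlation of 0.936, as a description over genes that share 2 libraries. In both groups 39 genes were higher in cells and 493 higher in nuclei, and 0 were called in opposite directions. The lists at the ends were the same, but the order between them was not, as homeobox genes had a median of −1.15 with *Pt-twist* and adhesion and guidance genes one of −1.06. Actin and tubulin had medians of 0.79 with *Pt-twist* and 0.91 without, and signalling genes −1.75 and −1.94, with 9 of 12 and 17 of 19 compared members higher in nuclei. Within these groups chromatin regulators had medians of −0.56 and −0.67, against −0.20 and −0.35 for all genes.

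LOC122272513 and LOC107440431 held the ends within both groups. LOC122272513 was 7.58-fold higher in cells with *Pt-twist* and 14.9-fold without. LOC107440431 was 505-fold higher in nuclei with *Pt-twist* [90.6, 19972], where cells had 1 molecule, and 446-fold without [205, 1216], where they had 6. Ribosomal protein L15 was 3.25-fold and 3.46-fold higher in cells, and *Pt-Notch* 3.83-fold [3.08, 4.82] and 5.72-fold [5.28, 6.21] higher in nuclei.

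A total of 51 genes had ratios that differed at least 2-fold between the groups, which was not tested. For 46 of them the level in cells relative to nuclei was higher with *Pt-twist*, and for 5 it was lower. The medians of the groups differ, and with each group centred on its own median these counts were 22 and 8. The largest such difference among genes with a product name was that of TRAF4 (LOC107445628), an adaptor of TNF receptors chosen after its values were seen, which was 1.56-fold higher in nuclei with *Pt-twist* [1.26, 1.95] and 5.22-fold without [4.66, 5.86]. *Pt-magu* (LOC107453771), a secreted calcium-binding protein chosen in the same way, was 3.13-fold [2.76, 3.55] and 8.06-fold [7.45, 8.73] higher in nuclei. *Pt-GATA1* was 2.31-fold [1.87, 2.89] and 5.23-fold [4.74, 5.80] higher.

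For the 5 other genes the level in cells was relatively lower with *Pt-twist*. *Pt-sog* was 17.4-fold higher in nuclei with *Pt-twist* [8.76, 40.4], where cells had 8 molecules, and 5.21-fold without [4.86, 5.58]. *Pt-ftz* was 3.21-fold higher with *Pt-twist* [2.52, 4.14] and 1.13-fold without [1.08, 1.18]. The remaining 3 were glutamine synthetase, an NPC intracellular cholesterol transporter and a gene named cold and drought-regulated protein, with differences of −1.12, −1.08 and −1.24 on the log2 scale.

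**Figure D4:**
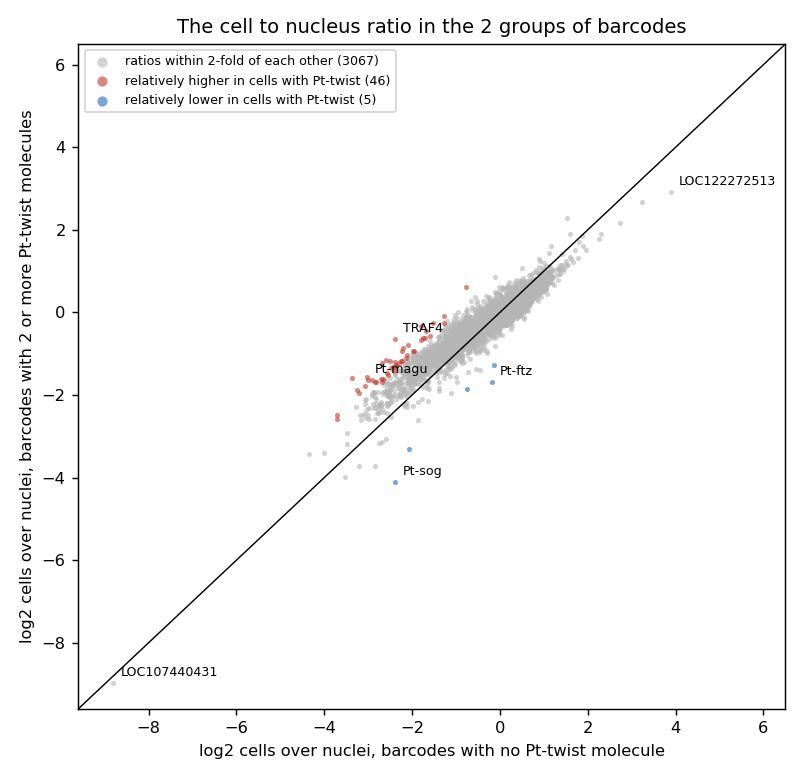
Log2 ratio of the level in cells to that in nuclei for 3118 genes, in barcodes with no *Pt-twist* molecule (horizontal) and with at least 2 (vertical), with equality as a line. Red and blue mark the 46 and 5 genes whose ratios differed at least 2-fold between the groups, and no gene passed 2-fold in opposite directions.

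Barcodes with and without *Pt-twist* were then compared within each library, where both groups shared their preparation. In cells 42 of 2772 genes were at least 2-fold higher with *Pt-twist* (1.52%) and 34 lower (1.23%). In nuclei 32 of 3765 were higher (0.850%) and 116 lower (3.08%). Called higher in both libraries were 23 genes, which is 54.8% of those called in cells and 71.9% of those in nuclei. The level filter left out part of each list in the other library. Of the 42 called in cells 38 were compared in nuclei, and of the 32 called in nuclei 23 were compared in cells, all 23 of which were called there. The filter used the mean level of both groups in a library, so a gene low without *Pt-twist* passed only if it was high with it. The overlap of all 23 is therefore in part set by the filter and does not measure how well the libraries match. Called lower in both were 24, which is 70.6% of those in cells and 20.7% of those in nuclei. Of the 34 called in cells 31 were compared in nuclei, but only 36 of the 116 called in nuclei were compared in cells, of which 24 were called there and 34 had the same sign. Across 2620 genes compared in both libraries the log2 ratios had a Pearson correlation of 0.684 and a Spearman correlation of 0.125, as most genes lay near 0 in both.

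Of the 10 genes with the highest ratio in each library, 7 were shared. A gene named ROS (LOC107441450), a receptor tyrosine kinase, was at 1.64 with *Pt-twist* and 0.061 without in cells and at 2.80 and 0.0854 in nuclei, 26.9-fold [19.1, 38.8] and 32.8-fold [29.6, 36.4] higher. LIM domain only protein 3 (LOC107436092) was 20.5-fold higher in cells [14.6, 29.4] and 10.7-fold in nuclei [10.0, 11.4], and roundabout homolog 1 (LOC107438411), a Slit receptor, 17.2-fold [12.1, 24.8] and 18.4-fold [16.3, 20.7].

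Both fibroblast growth factor receptors of the signalling list were in the shared top genes. *Pt-FGFRa* (LOC107437526) was at 1.77 and 0.147 in cells and at 6.52 and 0.504 in nuclei, 12-fold [9.43, 15.4] and 12.9-fold [12.3, 13.6] higher with *Pt-twist*. *Pt-FGFRb* (LOC107438841) was 11.8-fold [10.1, 13.8] and 8.28-fold [7.99, 8.58] higher. *Pt-FGFRa*, which over all barcodes was 2.89-fold higher in nuclei [2.60, 3.22], thus had a similar ratio between the groups of barcodes in both libraries.

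Further genes higher with *Pt-twist* were neurotactin (LOC107441543), an adhesion molecule in flies and 1 of the 10 highest in nuclei, and *Pt-ets1* (LOC107451344), an ETS factor chosen after its values were seen. Neurotactin was 6.17-fold higher in cells [5.73, 6.64] and 5.28-fold in nuclei [5.15, 5.40]. *Pt-ets1* was 5.25-fold [4.54, 6.08] and 3.46-fold [3.30, 3.62] higher. The marker *Pt-prd2* (LOC107445228), a paired-box gene, was 5.12-fold [4.13, 6.33] and 2.42-fold [2.26, 2.60] higher. Among the 23 shared genes the median log2 ratio was 2.36 in cells and 1.79 in nuclei, and 16 were further from 0 in cells.

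The 24 genes called lower with *Pt-twist* in both libraries had medians of −1.97 in cells and −1.43 in nuclei, and 19 of them lay further down in cells. Both shared sets were chosen by passing 2-fold in both libraries, so this holds for them and not for all genes called. Of the 36 genes called lower in nuclei and compared in cells, those outside the 24 lay nearer to 0 in cells. Of the 31 called lower in cells and compared in nuclei, those outside the 24 lay nearer to 0 in nuclei. Of the study's 10 region and stripe markers at stage 7, taken without the level filter, 9 were at least 2-fold lower with *Pt-twist* in both libraries, and the other was *Pt-prd2* above. The median of the 10 was −2.53 in cells and −1.62 in nuclei, and 7 of the 9 lay further down in cells. Counts were low, with 4 molecules of *Pt-hh* and 3 of *Pt-asl-H* in the cells with *Pt-twist*. *Pt-hh* was 20.0-fold lower in cells [7.73, 73.6] and 6.46-fold in nuclei [5.88, 7.11], where it was still at 0.690 [0.627, 0.758] in barcodes with *Pt-twist*. *Pt-otd* was 8.02-fold [3.84, 20.1] and 3.32-fold [2.89, 3.82] lower. *Pt-Delta*, at 2.58-fold [1.43, 5.11] and 2.65-fold [2.31, 3.06], and *Pt-six3-1*, at 2.82-fold [1.32, 7.21] and 3.57-fold [3.07, 4.18], did not lie further down in cells.

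Of the 2620 genes compared in both libraries, 1437 had *Pt-twist* ratios on the same side of 1 in both (54.8%). Past 2-fold, 0 genes went in opposite directions. TRAF4 and *Pt-magu* were among the genes with ratios on opposite sides of 1. TRAF4 was 1.48-fold higher with *Pt-twist* in cells [1.16, 1.87] and 2.26-fold lower in nuclei. *Pt-magu* was 2.09-fold higher in cells [1.81, 2.42] and 1.23-fold lower in nuclei. Ambient RNA in either library was not measured, and its part in the levels of ectodermal markers in barcodes with *Pt-twist* was not tested.

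**Figure D5:**
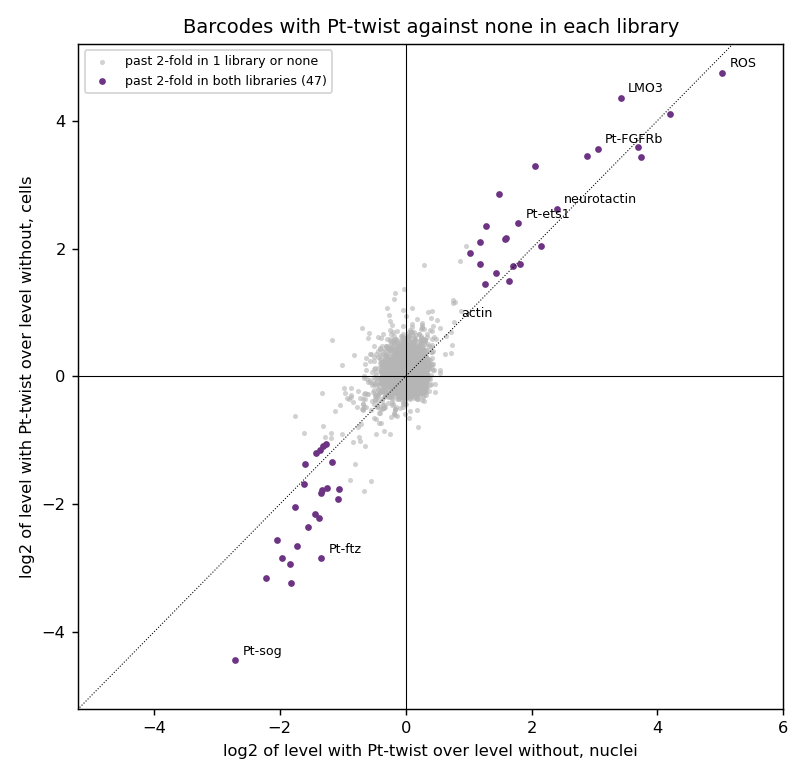
Log2 ratio of the level with at least 2 *Pt-twist* molecules to that with none, in nuclei (horizontal) and cells (vertical), for 2620 genes, with equality as a dotted line. The 47 genes past 2-fold in both libraries lie in the upper right (23) and lower left (24).

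Genes listed in 1 matrix only were few in molecules. The 129 genes listed only for cells held 1431 molecules, 0.0166% of that library, and the 6055 genes listed only for nuclei held 210869, or 0.307%. In cells 2 genes carried most of them, both without a product name. LOC107454441 had 516 molecules in 358 cells, a level of 0.597 [0.547, 0.651], and LOC122273308 had 488 in 347 cells, at 0.565 [0.516, 0.617]. In the nuclei kept by the filter the former had 1 molecule and the latter 0, so the latter was at least 1294-fold higher in cells against a floor of 3 molecules. The intron counting was done with an altered annotation for nuclei, and its part in these absences was not tested.

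Of the nuclear genes the leading one, LOC107454439, had 1384 molecules in 1058 nuclei, a level of 0.201 [0.191, 0.212], and 0 molecules in cells, at least 58.0-fold higher in nuclei against the same floor. LOC107456761 and LOC107445767 were likewise at 0 in cells, which put them at least 36.7-fold and at least 29.4-fold higher. The molecules of LOC107445767 came from 173 nuclei only, with 703 in all.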

How the data were processed

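The authors deposited molecule counts (unique molecular identifiers) per gene and barcode, made from BD Rhapsody libraries with the WTA pipeline and STAR 2.5.2b against Ptep_3.0, and filtered with Seurat 4.1.1 to over 1500 genes per cell or 2000 per nucleus and under 20000 molecules. Doublets were removed only through that upper limit. Introns were counted for nuclei only. Matrices of late stage-5 nuclei (4820 columns) belong to no sample here and were left out. Here the counts were summed per library and scaled to 10000 molecules with Python 3.11.15, scipy 1.17.1 and pandas 2.3.3. Steps were tested on simulated counts.

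Product names came from the study's gene tables and biotypes from the RefSeq annotation of another assembly, so no coordinates are given. Named genes were the markers, the 10 highest levels and the 10 most extreme ratios, the 4 most abundant members of each list, the 10 highest *Pt-twist* ratios per library and the 5 leading genes of 1 matrix; others are said to be chosen after their values were seen. Members and lists were chosen with earlier results of these data known. The alternatives were other level filters, scalings, barcode sets, thinning and *Pt-twist* groupings.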

Additional observations from a re-analysis of the deposited data

Results flagged for a closer look

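Only the named genes (139 in all) were searched for a log2 ratio of cells to nuclei with opposite signs in the 2 groups of barcodes. For 3 of them the signs differed between barcodes with at least 2 *Pt-twist* molecules and those with none, and both intervals excluded 1. Across all 3118 genes compared in both groups, 2778 had the same sign. The log2 ratio was −0.17 with *Pt-twist* and 0.27 without for LOC107443814, and −0.079 and 0.17 for LOC107440487. It was −0.23 and 0.13 for LOC107455547, a dnaJ protein. All 6 values were far inside 2-fold. Centred on the medians of their groups (−0.20 with *Pt-twist*, −0.35 without), the values of LOC107443814 and LOC107440487 are positive in both, and the differences were not tested.

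The 5 leading genes of the matrix for nuclei that have no row in the matrix for cells stood outside the gene-by-gene comparison. Molecules in nuclei numbered 1384 for LOC107454439, 1301 for LOC122270927, 895 for LOC107440408, 876 for LOC107456761 and 703 for LOC107445767. In the kept cells, the unfiltered matrix gave 1 molecule each for LOC122270927 and LOC107440408 and 0 for the other 3.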

How the results depend on the processing

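No paired analysis was possible because each preparation had 1 library. Over all barcodes the counts called higher in cells and in nuclei were 929 and 5445 with no filter on low levels, 58 and 342 at a mean level of at least 1, and 803 and 1399 when centred, and 306 were higher in cells when the most abundant genes (59 in all) were left out of the scaling. With *Pt-twist* they were 855 and 3209 with no filter, 32 and 201 at a level of 1; cells had 105 when centred, 96 without the most abundant genes and 177 when groups were set after thinning, and nuclei 268 before the barcode filter. Without *Pt-twist* they were 945 and 5714 with no filter; nuclei had 372 at a level of 1, and cells 307 when centred, 221 without the most abundant genes and 60 before the barcode filter. Of 60 named genes past 2-fold, 60 kept their direction under every alternative and 47 stayed past 2-fold. Centring shifts a log2 ratio by 0.60 and could not reverse a gene past 2-fold. Most other alternatives re-used the same molecules, so kept directions say little. Of 78 named genes within 2-fold, 16 changed sign under at least 1 alternative, 13 of them on centring. Of 1208 ratios of named genes under an alternative, 567 lay outside the counting interval of the reported value. Of 324 list counts 63 moved by over 1.5 times, 18 of them on centring. Centring the ratios of each *Pt-twist* group, an alternative chosen after seeing the data, moved the genes relatively higher and lower in cells with *Pt-twist* from 46 and 5 to 22 and 8. Depth limits cells most, as their 111 barcodes with *Pt-twist* held 1329782 molecules.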
